A study of Ambystoma mexicanum with 60 samples.

Results

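The RNAs of 5 germ line genes were followed along the egg and early embryo of the axolotl: GRIP2, DND1, NANOS1, RBPMS2 and TFAP2C. Their members are all transcripts whose human symbol in the deposited ortholog table equals one of these 5 names, which gave 10 of the 28909 transcripts counted, and all 10 had a mean embryo total above 20 in at least 1 stage. GRIP2 has 3 of them, GRIP2-a (AMEXTC_0340000035404), GRIP2-b (AMEXTC_0340000192586) and GRIP2-c (AMEXTC_0340000192585), lettered by falling mean count. TFAP2C has 3 as well, TFAP2C-a (AMEXTC_0340000027777), TFAP2C-b (AMEXTC_0340000131383) and TFAP2C-c (AMEXTC_0340000023612). RBPMS2 has RBPMS2-a (AMEXTC_0340000038222) and RBPMS2-b (AMEXTC_0340000294788), while DND1 (AMEXTC_0340000227198) and NANOS1 (AMEXTC_0340000239076) have 1 each. The ortholog table lists GRIP2-a and GRIP2-b as paralogs of each other. It lists TFAP2C-a and TFAP2C-c likewise, both with 1 further paralog that is not a member. How reads were divided among the paralogs of each gene is therefore uncertain.

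RNA was measured in single embryos of the axolotl (Ambystoma mexicanum) at the 1-cell (fertilized egg), 4-cell, 64-cell and 1K-cell (early blastula) stages, with 3 embryos a stage. Each embryo was frozen and cut across its animal-vegetal axis into 5 sections (TOMO-seq), of which A holds the animal pole and E the vegetal pole. Eggs were laid naturally in a pair of experiments with different parents, and which embryo came from which is not given. The labels name no genotype or treatment, and every embryo is untreated as far as they say. Section D of 1-cell replicate 3 is labelled an outlier and was not analysed here, so 59 libraries were used and section D has n = 2 at the 1-cell stage.

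In frogs, the RNAs of germ cell determinants lie in the germ plasm at the vegetal pole of the egg and are inherited by the cells that become primordial germ cells. Salamanders are known to form germ cells differently, by inductive signals and without such germ plasm, which makes the place of the same RNAs in a salamander egg of interest. GRIP2 is a PDZ scaffold protein whose frog RNA lies in the germ plasm. DND1 is an RNA-binding protein needed for the survival of primordial germ cells in zebrafish and mouse. NANOS1 is a zinc finger repressor of translation, RBPMS2 an RNA-binding protein known as Hermes in the frog, and TFAP2C a transcription factor needed for primordial germ cells in the mouse.

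The qPCR primers that the study designed on GRIP2-a, DND1 and NANOS1 are printed to tie these 3 names to sequence that can be searched for. They are given 5′ to 3′ in lower case.
GRIP2-a forward: ttttccagccggcaaaatgg
GRIP2-a reverse: ttggccacaggtttccaagt
DND1 forward: tgcccatgaagatccaggtt
DND1 reverse: ggaattcaaccatgcagcca
NANOS1 forward: ctccggaggctcctatgact
NANOS1 reverse: cccttgcccctttgcactaa

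Levels are given as normalized counts, the counts of a library divided by its median-of-ratios size factor. Libraries were made from equal amounts of RNA, so a level is relative to the other RNA of that section and not an amount per section. Library totals ran from 1546418 to 6001350 counts. The shallowest library was section E of 4-cell replicate 2, and this embryo stood apart for the vegetal RNAs. An embryo's total sums the raw counts of its libraries before a size factor is applied, so a shallow library weighs less in it. In 4-cell replicate 2 the total of GRIP2-a was 20.2% of the mean of the other 2 embryos, that of DND1 39.9%, of NANOS1 34.6%, of TFAP2C-a 34.7% and of RBPMS2-a 81.2%. In section E alone, normalized by library, these were 28.8, 56.1, 38.2, 42.5 and 92.1% in the same order. A wider set holds the other transcripts called vegetal at the 1-cell stage with most of their counts in E there, section D left out. In totals of this embryo, the median over 1131 transcripts of that set was 74.0%, and over 24443 transcripts not called vegetal it was 100.2%. Values without 4-cell replicate 2 are given beside the main changes at the 4-cell stage.

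All 5 genes were vegetal at the 1-cell stage. Within each stage, edgeR's quasi-likelihood F test asked whether a transcript differed among the 5 sections, with the embryo as a term, and calls were made below an adjusted p of 0.01. The direction was read from the vegetal-to-animal difference, the mean log2 level in D and E less the mean in A and B, from the same fit. The adjusted p beside such a difference is that of the test over sections, while the SE is that of the difference. Every SE of a log2 change here is the absolute change divided by the square root of its own quasi-likelihood F. It approximates a standard error and was not estimated directly. Of the 10 transcripts, 7 were called vegetal at the 1-cell stage, 6 at the 4-cell stage, 7 at the 64-cell stage and 5 at the 1K-cell stage. Over all transcripts, 5.59%, 2.08%, 3.30% and 3.20% were called vegetal at these stages. The members were chosen with earlier results of these data known, so their excess over these shares is a description and not independent support. Without 1 embryo of the stage the count was 2 to 5 at the 4-cell stage (2 without replicate 1, 3 without replicate 3) and 4 to 5 at the 64-cell stage (4 without replicate 1 or 3). No member was called animal at any stage by edgeR or DESeq2, where 1.34%, 0.169%, 0.405% and 0.342% of all transcripts were, and 0 had an unadjusted p under 0.05 in that direction. The median difference of the 10 was 6.00, 4.80, 4.94 and 4.13 on the log2 scale, whether the transcripts at 0 in A and B were taken as fitted or at their bound, against medians between -0.04 and 0.00 over all transcripts.

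GRIP2-a had the steepest gradient of the 5 leading transcripts at each stage. In section E it had 21266, 7769.6 and 13146 normalized counts in the 1-cell embryos, against 27.2, 15.6 and 9.78 in section A of the same embryos. At the 1K-cell stage section E still had 4702, 2744 and 3633, against 12.7, 10.4 and 15.3 in section A. Sections E and A were far from overlapping at either stage. The vegetal-to-animal difference was 6.73 ± 0.21 at the 1-cell stage (SE, adjusted p = 3.27e-08), 5.95 ± 0.28 at the 4-cell stage, 7.15 ± 0.32 at the 64-cell stage and 7.18 ± 0.18 at the 1K-cell stage, and it was called at all 4 stages. GRIP2-b, counted far less after the 1-cell stage, was vegetal too. It had 8985, 3639 and 4932 normalized counts in section E of the 1-cell embryos, against 11.1, 0 and 11.5 in section A, with a difference of 7.24 ± 0.50 (SE, adjusted p = 1.69e-06). It was called at the 64-cell stage as well (adjusted p = 0.00457), and not at the 4-cell (adjusted p = 0.0308) or 1K-cell stage (adjusted p = 0.0111). DESeq2 called it at both (adjusted p = 0.00301 and 1.17e-19), and edgeR without the embryo term called it at the 1K-cell stage (adjusted p = 0.00485). The 1-cell call was lost without 1-cell replicate 1 (adjusted p = 0.0112), and the 64-cell call without any one 64-cell embryo (adjusted p from 0.0114 to 0.115).

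DND1 had 11416, 7391 and 8547 normalized counts in section E of the 1-cell embryos, against 53.4, 38.6 and 42.6 in section A. At the 1K-cell stage section E had 2953, 2515 and 2539, against 46.6, 23.5 and 32.7 in section A. The difference was 6.04 ± 0.25 at the 1-cell stage (SE, adjusted p = 2.61e-07) and 5.39 ± 0.14 at the 1K-cell stage (adjusted p = 1.77e-08), with 5.56 and 5.98 between them. DND1 was called at every stage.

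NANOS1 had 17252, 7838 and 12394 normalized counts in section E of the 1-cell embryos, against 56.4, 42.7 and 38.0 in section A. At the 1K-cell stage section E had 2198, 1625 and 2156, against 73.5, 68.4 and 82.8 in section A. Section E was lower, and section A higher, in all 3 embryos of the 1K-cell stage than in any of the 1-cell stage. The difference was 6.01 ± 0.18 at the 1-cell stage (SE, adjusted p = 4.94e-08), 4.38 ± 0.34 at the 4-cell stage, 4.14 ± 0.22 at the 64-cell stage and 3.90 ± 0.08 at the 1K-cell stage (adjusted p = 1.02e-08). All 4 were called, but the 4-cell call was lost without 4-cell replicate 1 (adjusted p = 0.0404) and without 4-cell replicate 3 (adjusted p = 0.0168).

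TFAP2C-a had 8692, 3763 and 7196 normalized counts in section E of the 1-cell embryos, against 18.1, 29.2 and 25.9 in section A. At the 1K-cell stage section E had 2008, 1679 and 1928, against 36.7, 26.3 and 21.8 in section A. The difference was 6.00 ± 0.24 at the 1-cell stage (SE, adjusted p = 1.60e-07) and 4.99 ± 0.09 at the 1K-cell stage (adjusted p = 1.01e-08), and the 4-cell and 64-cell differences of 5.22 and 5.30 were called as well. Without 4-cell replicate 1 the 4-cell call was lost (adjusted p = 0.0106). TFAP2C-b, also had its highest level in section E at every stage, with differences of 4.37, 3.94, 4.58 and 4.18, all called. Its section E held 1308, 1056 and 756 normalized counts in the 1-cell embryos, against 15.1, 11.5 and 7.48 in section A. The calls of TFAP2C-b were lost without 4-cell replicate 1 or 3, without 64-cell replicate 1 or 3 and without any 1K-cell embryo (adjusted p from 0.0159 to 0.107).

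RBPMS2-a was the least vegetal of the leading transcripts. It had 2806, 2389.7 and 2697 normalized counts in section E of the 1-cell embryos, against 251, 238 and 276 in section A. By the 4-cell stage section E had 732, 729 and 851, against 379.8, 244 and 409 in section A. At the 1K-cell stage the values were 604, 652 and 452 in section E, against 338, 301 and 357 in section A, so these sections did not overlap but lay close. The difference was 2.26 ± 0.09 at the 1-cell stage (SE, adjusted p = 1.19e-07), 0.70 ± 0.11 at the 4-cell stage (adjusted p = 0.00116), 0.72 ± 0.08 at the 64-cell stage (adjusted p = 0.000323) and 0.69 ± 0.14 at the 1K-cell stage, where it did not pass (adjusted p = 0.0817 with edgeR, and 0.000338 with DESeq2). The 4-cell and 64-cell calls were lost without any one embryo of the stage (adjusted p from 0.0114 to 0.124 and from 0.0153 to 0.0490).

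**Figure D1:**
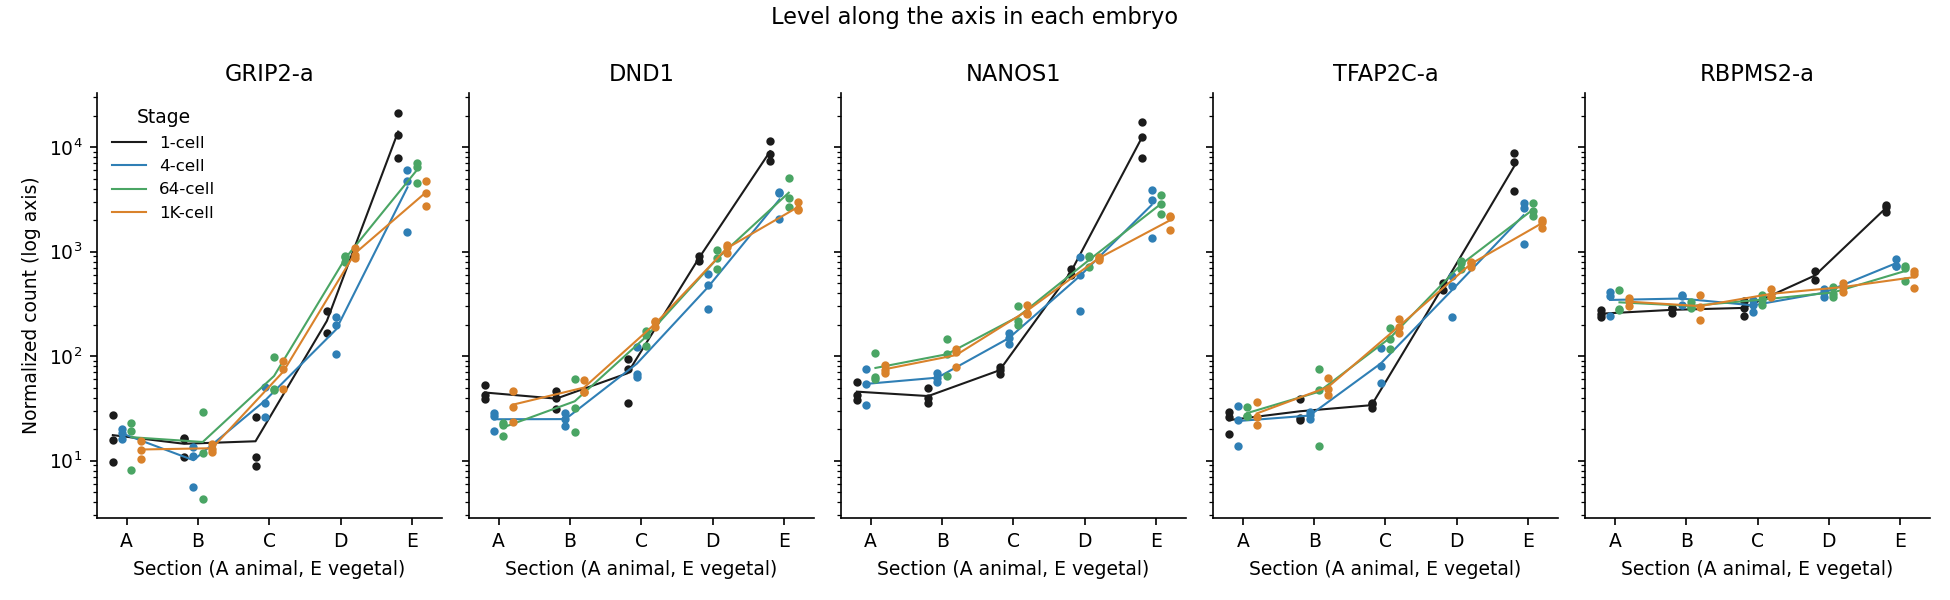
Normalized count on a log axis in sections A (animal) to E (vegetal) for the leading transcript of each gene. Points are single embryos and lines join stage means (3 embryos, 2 for section D at the 1-cell stage). The first 4 transcripts climb by more than a log unit towards E at every stage, whereas RBPMS2-a is steep at the 1-cell stage and nearly flat later.

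The rarer transcripts did not all share this profile. GRIP2-c had 0 to 37.7 normalized counts in section E and 8.06 to 21.4 in section A over the 12 embryos, and its smallest adjusted p at any stage was 0.462. RBPMS2-b had adjusted p from 0.0903 to 0.995 over the stages. Its section E level was 857 in 1-cell replicate 1, against 159.6 and 236 in the other 1-cell embryos, so that 1 embryo set its 1-cell mean. TFAP2C-c had no count in A, B or C at the 1-cell and 4-cell stages, and its section E held 419, 55.6 and 269 normalized counts at the 1-cell stage. Against a floor of 3 counts over the 6 libraries of A and B, sections D and E of the 1-cell embryos were at least 343-fold higher on average. It was not called (adjusted p = 0.0453 at the 1-cell stage), and at the 4-cell stage only replicate 1 had any count.

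For the leading transcript of each gene, the share found in section E was smaller at each later stage. The share is that of the summed normalized counts of the sections of an embryo, and 1-cell replicate 3 was summed over 4 sections. For GRIP2-a the share was 98.4, 97.4 and 99.8% in the 1-cell embryos, 93.5% ± 2.50 at the 4-cell stage, 85.7% ± 4.04 at the 64-cell stage and 77.3% ± 4.24 at the 1K-cell stage (SD, n = 3 each). DND1 had 92.7% ± 5.17, 84.1% ± 0.762, 76.8% ± 2.91 and 66.1% ± 3.75 at the same 4 stages. NANOS1 had 95.1% ± 3.79, 75.3% ± 5.54, 69.0% ± 4.46 and 60.1% ± 2.92, and TFAP2C-a 93.3% ± 6.24, 79.2% ± 2.58, 71.8% ± 2.33 and 64.4% ± 1.19. RBPMS2-a had 68.6% ± 6.46 at the 1-cell stage and 35.3% ± 1.88 at the 4-cell stage, then 32.0% ± 3.11 and 27.6% ± 4.19. In GRIP2-a, DND1, NANOS1, TFAP2C-a and RBPMS2-a alike, no 1K-cell embryo reached the lowest 1-cell embryo. The median share of the 1610 other transcripts called vegetal at the 1-cell stage, a set chosen on its 1-cell levels, was 56.1, 38.2, 36.6 and 32.9% at the 4 stages, while the median over all transcripts with counts stayed between 19.5 and 20.9%. These shares were not tested. At the 1-cell stage the embryos of DND1, NANOS1 and TFAP2C-a overlapped, whereas RBPMS2-a lay below the other 4 in every embryo of every stage.

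**Figure D2:**
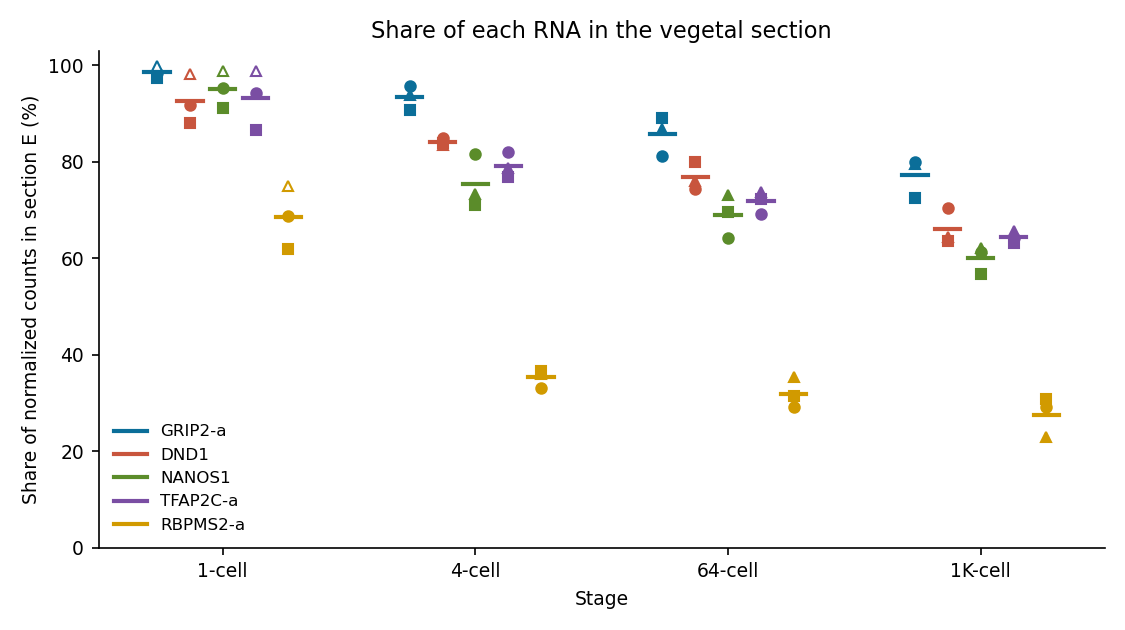
Share of an embryo's normalized counts lying in section E (percent), by stage, for the leading transcript of each gene. Circles, squares and triangles are replicates 1, 2 and 3, bars are means, and open symbols mark 1-cell replicate 3, summed over 4 sections. GRIP2-a stays highest, at 77.3% by the 1K-cell stage, and RBPMS2-a drops to 35.3% at the 4-cell stage.

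Relative to section E, the neighbouring section D was higher at each later stage for the leading transcript of each gene. Section D of GRIP2-a had 1071, 933 and 866 normalized counts at the 1K-cell stage, against 269 and 165 at the 1-cell stage. Its level in D was 26.9% of that in E at the 1K-cell stage (22.8 to 34.0%, n = 3), against 1.69% at the 1-cell stage (1.27 to 2.12%, n = 2). For DND1 the level in D was 40.6% of that in E at the 1K-cell stage, against 9.52% at the 1-cell stage. For NANOS1 these were 44.0% and 5.79%, for TFAP2C-a 40.8% and 9.05%, and for RBPMS2-a 81.4% and 23.1%, in the same order of stages. These ratios depend on E as well as on D. The mean level in D itself at the 1K-cell stage was 1073 for DND1, against 864 at the 1-cell stage. It was 864 against 640 for NANOS1 and 761 against 462 for TFAP2C-a, but 458 against 591 for RBPMS2-a. At the 4-cell stage the mean in D was below the 1-cell mean for each leading transcript, at 459 for DND1 and 180 for GRIP2-a. Section D was not tested between stages, since 1 embryo has none.

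Section E itself was compared between stages with edgeR on its 12 libraries. At the 4-cell stage against the 1-cell stage, 3 of the 10 transcripts were lower, where 1.45% of all transcripts were. These were RBPMS2-a, by -1.71 ± 0.17 (log2, SE, adjusted p = 0.000267), GRIP2-b, by -5.32 ± 0.47 (adjusted p = 0.000154), and NANOS1, by -2.10 ± 0.38 (adjusted p = 0.00865). The call of NANOS1 was narrow. It was lost in 11 of the 12 fits that left out 1 embryo (adjusted p from 0.0118 to 0.0293), and without 4-cell replicate 2 its change was -1.77 (adjusted p = 0.0167). Without that embryo RBPMS2-a changed by -1.67 (adjusted p = 0.00217) and GRIP2-b by -5.02 (adjusted p = 0.000665), both still called. DESeq2 called 6 of the 10 lower, and its share over all transcripts was not computed.

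At the 1K-cell stage against the 1-cell stage, 6 of the 10 were lower in section E, where 3.10% of all transcripts were. NANOS1 changed by -2.59 ± 0.39 (log2, SE, adjusted p = 0.00191), RBPMS2-a by -2.15 ± 0.17 (adjusted p = 4.56e-05), DND1 by -1.71 ± 0.29 (adjusted p = 0.0033), TFAP2C-a by -1.75 ± 0.35 (adjusted p = 0.00849), TFAP2C-b by -2.43 ± 0.38 (adjusted p = 0.0023) and GRIP2-b by -5.56 ± 0.48 (adjusted p = 7.80e-05). GRIP2-a changed by -1.87 ± 0.48 and did not pass (adjusted p = 0.0271). Without 4-cell replicate 2, which shares in the estimate of spread, it passed (adjusted p = 0.00869). With the 3 transcripts of GRIP2 summed, a fit chosen after seeing these values, the gene was not called in section E with edgeR. It changed by -2.31 ± 0.49 (adjusted p = 0.0108), and by -2.16 ± 0.49 at the 4-cell stage (adjusted p = 0.0228). Left out 1 at a time, the 1K-cell embryos took the count to 3, 2 and 2. TFAP2C-a lost its call in 9 of the 12 fits without 1 embryo, DND1 in 4, TFAP2C-b in 3 and NANOS1 in 2, with adjusted p no higher than 0.0427. Between neighbouring later stages no member was called in section E by edgeR or DESeq2. For 64-cell over 4-cell, 0 had an unadjusted p under 0.05 and 0.0104% of all transcripts were called. For 1K-cell over 64-cell, 1 had (TFAP2C-b, adjusted p = 0.305 with edgeR) and 0.0519% were called.

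The animal sections A and B and the central section C were compared together in the same way. In the counts of sections A, B and C summed for each embryo, 2 of the 10 were higher at the 1K-cell stage than at the 1-cell stage, where 7.66% of all transcripts were, so the count of members is not far from the background. NANOS1 rose by 1.51 ± 0.23 (log2, SE, adjusted p = 0.000624) and TFAP2C-a by 1.62 ± 0.30 (adjusted p = 0.0023). TFAP2C-a lost its call without 1-cell replicate 2 (adjusted p = 0.0119) and without 1-cell replicate 3 (adjusted p = 0.0125). DND1 changed by 0.93 ± 0.23 (adjusted p = 0.0124) and GRIP2-a by 1.01 ± 0.42 (adjusted p = 0.126). GRIP2-b changed by -3.57 ± 1.71 (adjusted p = 0.198), the opposite sign. DND1 passed without 4-cell replicate 1 (adjusted p = 0.00801) and without 64-cell replicate 1 (adjusted p = 0.00953). The share of NANOS1 in A to C was 13.6% at the 1K-cell stage (12.8 to 14.2%), against 1.33% at the 1-cell stage (0.953 to 1.83%). Within the sum, sections C and A differed. Mean normalized counts in C at the 1K-cell and 1-cell stages were 273 and 73.2 for NANOS1 and 194 and 33.9 for TFAP2C-a. They were 205 and 68.5 for DND1 and 71.2 and 15.3 for GRIP2-a. In A these were 74.9 and 45.7, 28.3 and 24.4, 34.3 and 44.8, and 12.8 and 17.5, in the same order. Sections A and C alone were not tested between stages.

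**Figure D3:**
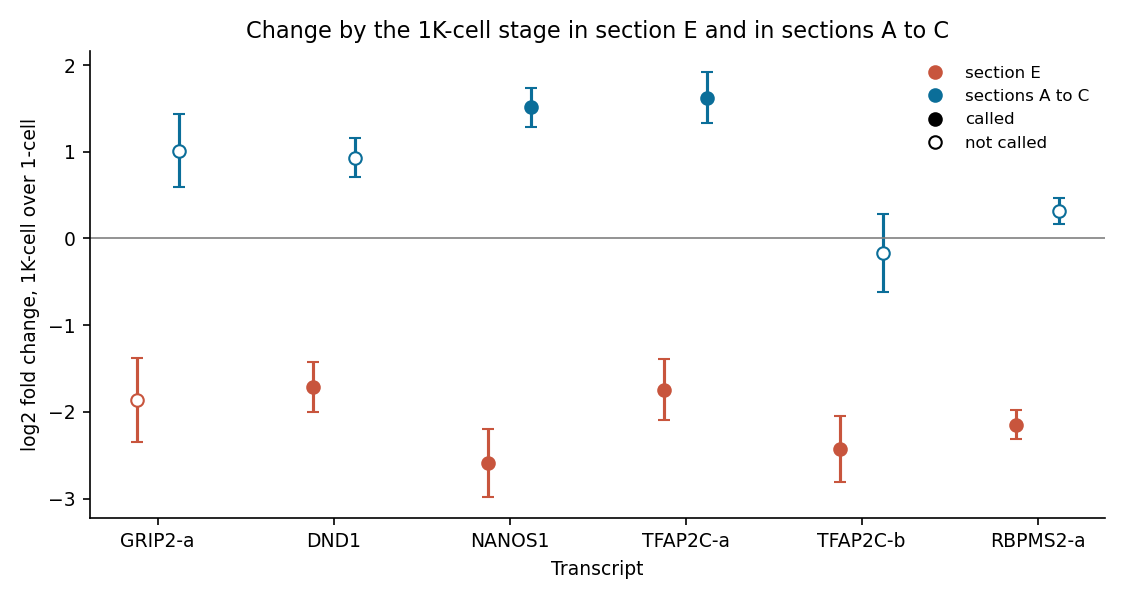
Log2 fold change at the 1K-cell stage over the 1-cell stage in section E and in the sum of sections A to C, with SE bars, for GRIP2-a, DND1, NANOS1, TFAP2C-a, TFAP2C-b and RBPMS2-a. Filled points were called at an adjusted p under 0.01, and open points were not. All 6 lie below 0 in section E, between -1.71 and -2.59, and 5 of 6 lie above 0 in sections A to C. GRIP2-b, not drawn, had -5.56 in section E and -3.57 in sections A to C.

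Whether the difference between the poles changed was tested directly, as the E-to-A difference at a later stage minus that at the 1-cell stage. The fit had no embryo term, so sections of the same embryo were treated as independent. With edgeR, RBPMS2-a and NANOS1 were called at each of the 3 later stages, and no other member was. For RBPMS2-a the change was -2.21 ± 0.25 at the 4-cell stage (log2, SE, adjusted p = 2.27e-07, and -2.36 without 4-cell replicate 2), -2.37 ± 0.25 at the 64-cell stage and -2.58 ± 0.25 at the 1K-cell stage (adjusted p = 3.40e-09). For NANOS1 it was -2.40 ± 0.48 at the 4-cell stage (adjusted p = 0.00388), -2.90 ± 0.47 at the 64-cell stage and -3.37 ± 0.47 at the 1K-cell stage (adjusted p = 9.46e-06). Such a fall was called for 0.325%, 0.301% and 0.792% of all transcripts. The 4-cell call of NANOS1 was lost without 1-cell replicate 1 (adjusted p = 0.0371), without 1-cell replicate 3 (adjusted p = 0.0485) and without 4-cell replicate 2 (adjusted p = 0.0424), and its 64-cell call without 64-cell replicate 1 (adjusted p = 0.0164). TFAP2C-a changed by -1.98 ± 0.54 at the 1K-cell stage (adjusted p = 0.0415 with edgeR, and 0.00674 with DESeq2, which called it), GRIP2-a by -1.52 ± 0.73 (adjusted p = 0.433) and DND1 by -1.34 ± 0.46 (adjusted p = 0.173). That these 3 missed the threshold does not show that they kept their gradient.

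Embryo totals sum raw counts, so a shallow library weighs less in them. Section E had size factors of 0.379, 0.558 and 0.573 in the 1-cell embryos, against 0.742, 1.31 and 0.699 in the 1K-cell embryos. Section E thus tended to weigh less in the 1-cell totals, and falls from that stage may be understated for RNAs confined to it. In these totals GRIP2-b alone passed the edgeR test. It had 164, 32.7 and 194 normalized counts in the 4-cell embryos, against 3749, 2401 and 3499.9 in the 1-cell embryos and no values overlapped. It was lower, by -4.62 ± 0.51 (log2, SE, adjusted p = 5.65e-05, and -4.17 without 4-cell replicate 2), and by -4.53 ± 0.51 at the 1K-cell stage over the 1-cell stage (adjusted p = 4.29e-05). It was the only call among the 10 in either comparison, where 5.47% and 6.33% of all transcripts were lower. GRIP2-b made up between 2.75 and 4.15% of the counts of GRIP2-a and GRIP2-b together in each of the 9 later embryos, against 29.6, 32.2 and 27.4% in the 1-cell embryos. This share depends on how reads were divided between these paralogs, which is uncertain. The counts of GRIP2-b stayed vegetal. At the 4-cell stage sections A, B and C held none, and the mean of D and E was at least 175-fold above the floor of 3 counts over A and B. With the 3 transcripts of GRIP2 summed, a fit chosen after seeing these values, the gene was not called (change at the 4-cell stage -1.58 ± 0.46, adjusted p = 0.0321). PTPRC, the pan-leukocyte marker CD45, was lower too, with a mean total of 6.75 normalized counts at the 4-cell stage, against 289 at the 1-cell stage (log2 change -5.35 ± 0.53, adjusted p = 2.38e-05). At the 1-cell stage section E held 22.6% of PTPRC, against 98.3% of GRIP2-b. Of 10 follicle cell and blood markers only PTPRC was measured, and its part in the fall of GRIP2-b was not tested.

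**Figure D4:**
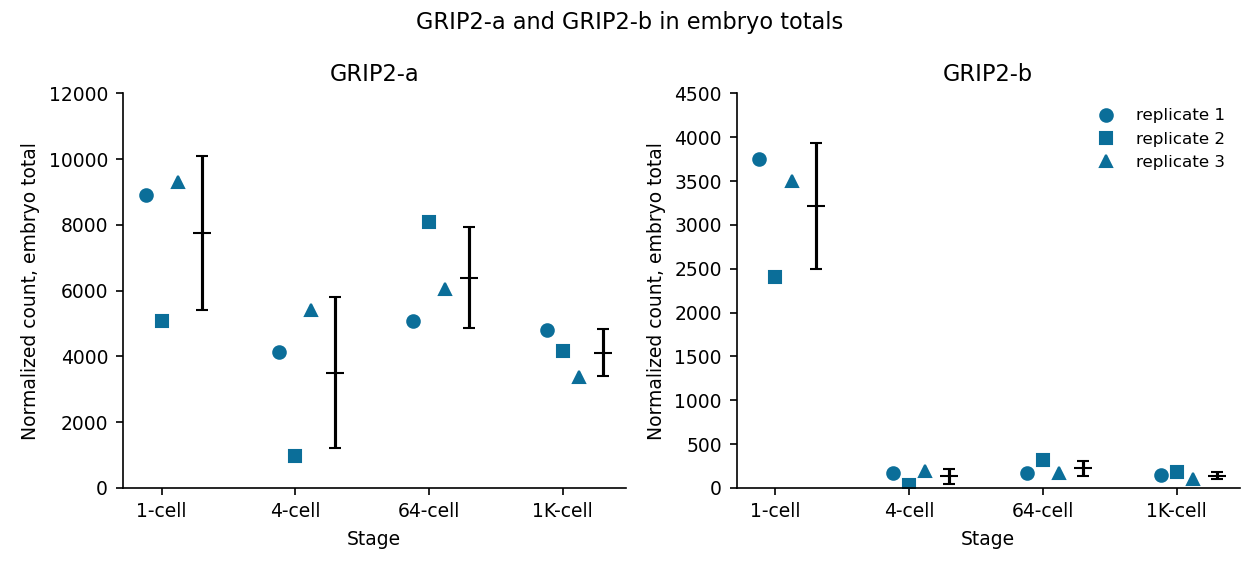
Normalized counts of GRIP2-a and GRIP2-b in embryo totals by stage. Symbols are the 3 replicates, and the offset bar is the mean with its SD. GRIP2-b lies at 323 or below in the later embryos, against 2401 or above in the 1-cell embryos. In these totals, which sum raw counts, GRIP2-a overlaps between stages and is lowest, at 962, in 4-cell replicate 2. In section E, not drawn, its lowest 1-cell embryo had 7770 normalized counts, against 7038 in the highest later embryo.

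Some other members missed the threshold in this fit and passed it in another. NANOS1 had 3416, 1333 and 4287 normalized counts in the 4-cell embryos, against 7778, 5689 and 8936 in the 1-cell embryos, with no overlap (log2 change -1.31 ± 0.32, adjusted p = 0.0137). It passed without 4-cell replicate 2 (-0.95, adjusted p = 0.00660) and without 4-cell replicate 3 (-1.65, adjusted p = 0.00628). GRIP2-a had 4119, 962 and 5423 in the 4-cell embryos, against 8900.1, 5064 and 9295 in the 1-cell embryos (log2 change -1.15 ± 0.47, adjusted p = 0.121), and these totals overlap. In section E alone, normalized by library, its highest 4-cell embryo had 6072 and its lowest 1-cell embryo 7770, with no overlap. Without 4-cell replicate 2 the change of the GRIP2-a total was -0.70 (adjusted p = 0.140). At the 1K-cell stage NANOS1 was at 3225, 3072 and 2865 (log2 change over the 1-cell stage -1.29 ± 0.32, adjusted p = 0.0107, and 0.000232 without 4-cell replicate 2), DND1 changed by -0.66 ± 0.34 (adjusted p = 0.194) and TFAP2C-a by -0.60 ± 0.33 (adjusted p = 0.217). The 1-cell total of replicate 3 lacks section D. Leaving out this embryo alone gave 1 call at the 4-cell stage and 1 at the 1K-cell stage, as in the main fit. With it left out and each library also normalized before the sections were summed, 4 members were lower in 4-cell embryos and 5 in 1K-cell embryos. DESeq2 on the main totals called 2 and 3 in the same comparisons. Shares over all transcripts were computed for the main fit only, so these larger counts have no background to be set against. In the sums without that embryo, NANOS1 changed by -1.88 at the 4-cell stage (adjusted p = 0.00520 with edgeR) and -2.01 at the 1K-cell stage (adjusted p = 0.00235). DND1 changed by -1.48 (adjusted p = 0.00442 with edgeR) and -1.37 (adjusted p = 0.00448), and RBPMS2-a by -0.86 (adjusted p = 0.000810) and -0.95 (adjusted p = 0.000299). TFAP2C-b was the other addition, at -2.19 at the 1K-cell stage (adjusted p = 0.00156 with edgeR). By DESeq2, NANOS1 was added at both stages and RBPMS2-a at the 1K-cell stage. Between neighbouring later stages edgeR and DESeq2 called no member. For 64-cell over 4-cell, 0 had an unadjusted p under 0.05 and 0.360% of all transcripts were called. For 1K-cell over 64-cell, 1 had (TFAP2C-b, adjusted p = 0.354 with edgeR) and 3.18% were called.

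The levels of the 5 RNAs in section E tended to be high or low in the same embryos. There, 1-cell replicate 1 was the highest and 1-cell replicate 2 the lowest of its stage for all 5 leading transcripts. 4-cell replicate 2 and 64-cell replicate 1 were likewise the lowest for all 5, whereas no 1K-cell embryo was the lowest for all 5. Embryo totals, in which a shallower section E library weighs less, ranked the embryos differently. Section E had 1780255, 2562328 and 2757461 counts in 1-cell replicates 1, 2 and 3, and 3045146, 5128611 and 2768323 in those of the 1K-cell stage. In totals 1-cell replicate 3, summed over 4 sections, was the highest for all 5, 1-cell replicate 1 was the lowest for 2 and replicate 2 for 3, and 1K-cell replicate 3 was the lowest for all 5, while 4-cell replicate 2 and 64-cell replicate 1 were the lowest in totals too. The spread was wide for GRIP2-a, whose highest 1-cell embryo had 2.74 times the level of the lowest, and narrow for RBPMS2-a, at 1.17 times. As deviations of log2 levels from the stage mean over the 12 embryos, NANOS1 and TFAP2C-a correlated at r = 0.98 (Spearman's rho = 0.97), GRIP2-a and NANOS1 at 0.98 (0.93) and GRIP2-a and TFAP2C-a at 0.95 (0.91). DND1 correlated with these 3 at 0.73 to 0.87 (0.69 to 0.83). RBPMS2-a correlated with the others at 0.27 to 0.57 (0.25 to 0.50). The median over the 10 pairs was 0.75, and 0.60 without 4-cell replicate 2. The share of section E in the sum of sections A, B, C and E, with D left out, was also used in place of the level. The pairs then ran from -0.31 to 0.91 with 7 of 10 above 0, and with levels as CPM from 0.03 to 0.97. All values are descriptions, since both RNAs of a pair come from the same library.

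With the 2 embryos farthest from the median of the first gene of a pair left out, NANOS1 and TFAP2C-a gave r = 0.98, GRIP2-a and NANOS1 0.89, GRIP2-a and TFAP2C-a 0.82, and NANOS1 and RBPMS2-a 0.04. Other vegetal transcripts varied with them. Each leading transcript was correlated in the same way with 1072 other transcripts called vegetal at the 1-cell stage. These had most of their 1-cell counts in E, section D left out, and counts in every section E library. The median r was 0.696 for GRIP2-a, 0.695 for NANOS1, 0.695 for TFAP2C-a, 0.596 for DND1 and 0.343 for RBPMS2-a. The wider set that they came from stood at a median 66.2% of the other 2 embryos in section E of 1-cell replicate 2 (1144 transcripts). It stood at 64.5% in 4-cell replicate 2 (1122) and at 75.1% in 64-cell replicate 1 (1122). With the depth of the section E library the 5 correlated at 0.21 to 0.40. Without 4-cell replicate 2 these were between -0.65 and -0.34 for the 4 strongly vegetal RNAs and 0.40 for RBPMS2-a. The part of depth in the covariation was not tested.

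**Figure D5:**
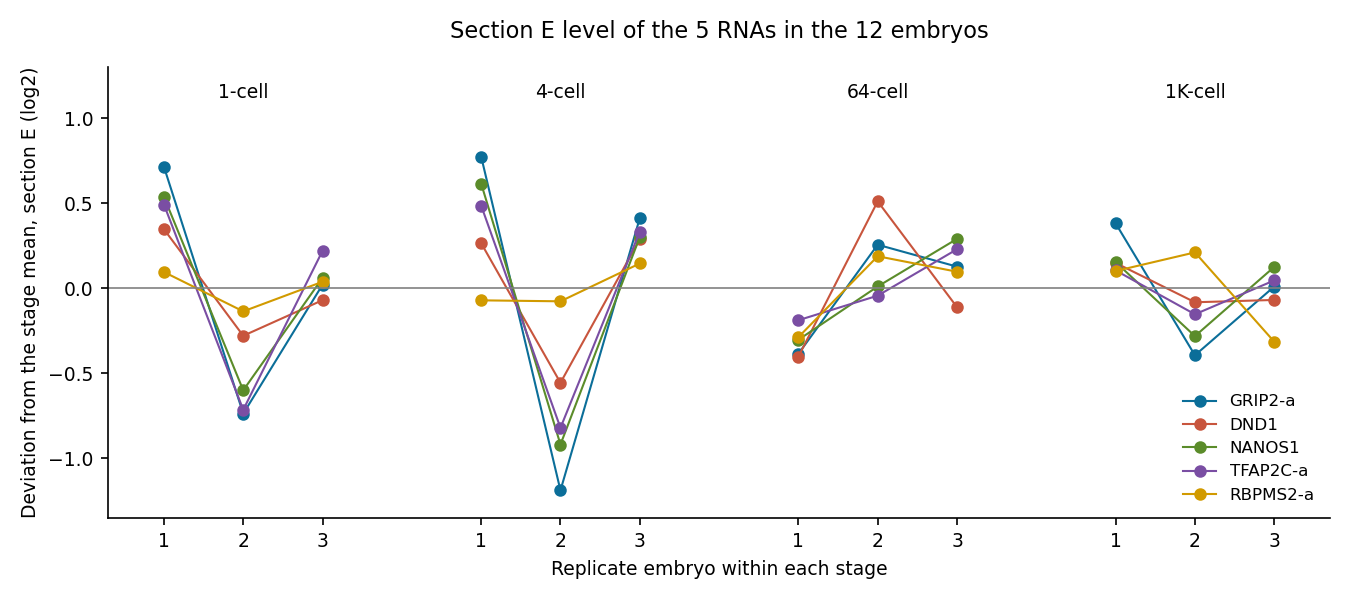
Deviation of the section E level from its stage mean (log2) in the 3 replicate embryos of each stage, for the leading transcript of each gene. Lines only join points of 1 stage. GRIP2-a, NANOS1 and TFAP2C-a move together, with the deepest dip in 4-cell replicate 2, at -1.19 for GRIP2-a, and RBPMS2-a stays between -0.31 and 0.21.

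Among genes outside the 5, those most like their mean profile included GNG7, a G protein subunit (Pearson r = 0.996 over 59 libraries), SAYSD1 (0.992), the Notch coactivator MAML1 (0.991) and PPP1R3B, a targeting subunit of protein phosphatase for glycogen (0.991). NRBP2, SAPCD2, SLC12A9, DSTYK and SHCBP1 followed at 0.989 to 0.986. In all, 491 transcripts outside the members exceeded 0.9. With the mean of the other 4 genes, TFAP2C-a correlated at 0.988, NANOS1 at 0.987, DND1 at 0.982, GRIP2-a at 0.978 and RBPMS2-a at 0.816. Section E held 95.7, 85.5, 78.0 and 67.9% of GNG7 at the 4 stages.

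Related genes and other germ line genes were looked up in the same fits. Of 11 listed relatives of the 5 genes, GRIP1 and RBM47 were measured. GRIP1 had adjusted p from 0.189 to 0.693 along the axis over the 4 stages, and RBM47 from 0.262 to 0.922. Section E held 20.5% of GRIP1 at the 1-cell stage and 18.3% at the 1K-cell stage. Of 23 other germ line genes, 19 were measured. At the 1-cell stage 2 of them passed as vegetal, against 5.59% of all transcripts, and 2 as animal, against 1.34%. The vegetal ones were PLIN2, a coat protein of lipid droplets (difference 1.99 ± 0.13, adjusted p = 8.96e-06), and the RNA-binding protein ELAVL2 (1.20 ± 0.19, adjusted p = 0.000288). The animal ones were the tudor proteins TDRD6 (-0.99 ± 0.09, adjusted p = 0.000149) and TDRD1 (-0.74 ± 0.08, adjusted p = 0.000813), which in other vertebrates act in germ granules. DDX4, the Vasa helicase, had 18.8% of its counts in section E at the 1-cell stage and was called animal at the 64-cell stage (-0.43 ± 0.06, adjusted p = 0.00636). DAZL, an RNA-binding protein of germ cells, had a 1-cell difference of 1.17 ± 0.23 that did not pass (adjusted p = 0.0437). The median difference of the 19 was -0.10 at the 1-cell stage, against -0.04 over all transcripts. At the 1K-cell stage PLIN2 alone of them was called, at 0.71 ± 0.08 (adjusted p = 0.00186), where 3.20% of all transcripts were called vegetal.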

How the data were processed

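RNA of 5 sections of each of 12 single embryos was sequenced after depletion of ribosomal RNA with a directional kit. The authors trimmed the reads with Trimmomatic, removed mitochondrial and remaining ribosomal reads and pseudo-aligned them to the axolotl transcriptome with kallisto, for which the submitters' processing notes give version 0.43.1. The deposited values are estimated counts per transcript that the authors made with kallisto, given as whole numbers (0 fractional values) and kept where a transcript exceeded 30 in at least 1 library (the lowest maximum in the file was 31). Deposited tables normalized by the authors, and their totals and test results, were not used.

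Counts were tested with edgeR 4.0.16 in R 4.3.3 (limma 3.58.1), by its quasi-likelihood test, with size factors by the median of ratios (DESeq2 1.42.0) and Benjamini-Hochberg adjustment over all 28909 transcripts. Transcripts were called where the adjusted p was below 0.01 and the mean embryo total exceeded 20 in 1 or more stages. Sections within a stage were compared by an F test over sections, with embryo as a term. Totals, section E and the sum of A to C had stage as the only term, and the change of the E-to-A difference had a term for each stage and section. Totals and the sum of A to C added raw counts before normalization. Correlations were computed with scipy 1.17.1 on log2(normalized count + 1). Alternatives were TMM, filterByExpr, DESeq2, other replicate terms, other sums for totals, and leaving out each embryo.

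The members and gene lists were chosen with earlier results of these data known. Named genes are every member, up to 4 called genes of each list (relatives, germ line, follicle and blood), and the 10 transcripts with a symbol most correlated with the mean of the 5 leading transcripts, of which 1 is not reported here. DDX4, DAZL, GRIP1, RBM47 and PTPRC were added after their values were seen. Replicates are single embryos whose parents are not stated. In the tests of totals, section E and A to C each embryo gives 1 value, so p-values measure only the spread between these embryos. The test over sections measures the spread left after the embryo term. The test of the E-to-A difference has no embryo term and treats sections of the same embryo as independent. Its p-values are therefore not a measure of the spread between embryos. The summed-gene fits were chosen after seeing the data.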

Additional observations from a re-analysis of the deposited data

Results flagged for a closer look

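The fall of the E-to-A difference relative to the 1-cell stage was itself tested, and it passed for RBPMS2-a and NANOS1. For RBPMS2-a the difference changed by -2.21 at the 4-cell stage, -2.37 at the 64-cell stage and -2.58 at the 1K-cell stage on the log2 scale. For NANOS1 it changed by -2.40, -2.90 and -3.37 at the same stages. The 4-cell value of NANOS1 was -1.78 without 4-cell replicate 2 and did not pass (adjusted p = 0.0424 with edgeR).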

How the results depend on the processing

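With each embryo left out in turn, between 6 and 7 members were called along the axis in 1-cell embryos, between 2 and 5 in 4-cell embryos, between 4 and 5 in 64-cell embryos and 4 in 1K-cell embryos. The same fits gave 1 to 2 in totals for 4-cell and for 1K-cell over 1-cell, 2 to 4 in section E for 4-cell over 1-cell and 2 to 7 for 1K-cell over 1-cell, 1 to 3 in sections A to C, and 1 to 2, 1 to 2 and 2 for the E-to-A difference at the 3 later stages. The comparisons of neighbouring later stages stayed at 0, and the median covariation ran from 0.600 to 0.943. DESeq2 called 2 and 3 members in totals for 4-cell and 1K-cell over 1-cell, and 6 in section E for 4-cell over 1-cell. Sums of normalized counts without the embryo lacking section D gave 4 and 5 in these totals, and sums over A, B, C and E gave 2 for 1K-cell over 1-cell. No share over all transcripts was computed for the alternative fits. With the replicate number as a block, totals gave 1, 0, 0 and 1 calls, section E 3, 0, 0 and 6, and A to C 2. With a term for each embryo as the block, the counts were 2, 2 and 2 for the E-to-A difference, and without the block on the axis they were 7, 6, 7 and 6. The labels do not say whether the numbers pair embryos across stages, and small correlations cannot exclude shared parents. The 18 correlations between same-numbered embryos ran from -0.164 to 0.154, with 4 above 0.1. The 36 between embryos of other numbers ran from -0.174 to 0.157. Over 7 of the member transcripts, 1510 of 1596 single values stayed as in the main fit, which includes those called in neither fit. Of the rest, 55 lost a call and 31 gained one, and 0 called values changed sign.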
